A study of Sus scrofa with 12 samples.

Results

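Cytochrome P450 enzymes and the oxidising and conjugating enzymes that work beside them were compared in the endometrium of pregnant and non-pregnant sows. The members are the genes whose symbol in the array's annotation begins with CYP, UGT, SULT, ALDH, FMO or CES followed by a digit, without the steroidogenic CYP11A1, CYP17A1, CYP19A1 and CYP19A3. A probe set was taken only where it carried 1 symbol, and a gene with several was read from the one that was brightest on average across the 12 arrays. This gave 43 genes, represented by 56 probe sets, of 6765 genes and 23999 probe sets tested. They comprised 24 P450s, 11 aldehyde dehydrogenases (ALDH), 3 sulfotransferases (SULT), 2 flavin monooxygenases (FMO), 2 carboxylesterases (CES) and 1 glucuronosyltransferase (UGT). A further 8 probe sets of these families carried several symbols and are not members.

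The endometrium, the lining of the uterus, was collected on Day 14 after insemination from 6 pregnant sows and from 6 sows that had received inactivated semen and carried no pregnancy. Yorkshire and Landrace were equally represented, with 3 sows of each breed per group, and each sow was measured on 1 Affymetrix porcine array. The tissue comprised epithelium, lamina propria and submucosa from several sections of both flushed uterine horns, without the muscle layer, so that a value averages over cell types and over sites with and without an attached embryo. The ages of the sows are not given in the sources used here. All sows had been inseminated, and no sow without insemination was compared.

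P450 enzymes are haem proteins that insert an oxygen atom into sterols, retinoids, fatty acids and foreign compounds, with electrons passed on by a reductase. Some have narrow roles, such as breaking down retinoic acid or building cholesterol, and others act on many drugs and steroids. Flavin monooxygenases oxidise nitrogen and sulfur atoms, aldehyde dehydrogenases turn aldehydes into acids, carboxylesterases split esters, and sulfotransferases and glucuronosyltransferases attach groups that make steroids and drugs more soluble in water. In the uterus such enzymes help to set the local supply of oestrogen, retinoic acid and other lipid signals around the time the conceptus attaches.

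Expression is given on the log2 scale, on which 1 unit is a doubling. Differences were tested with limma over all 23999 probe sets, with breed and pregnancy in the same model, and a gene is called where the Benjamini-Hochberg adjusted p was under 0.05. Of the 43 genes, 26 exceeded 6.29, the overall median value, on 3 or more arrays. CYP1A1, CYP2C33, CYP2C36, CYP2E1 and CYP8B1 lay below the lower quartile of their array (4.58 to 4.71) on all 12 arrays, and 7 further genes did so on some arrays. Differences of such dim genes are compressed towards 0.

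The array of non-pregnant sow 7 and that of pregnant sow 12 stood apart from their groups on the first principal component, at 20.4 and -18.9 where the other non-pregnant sows lay below 0 and the other pregnant sows above 0. All 10 measured epithelial markers lay above the lower quartile on at least some arrays. Their mean ran from 9.26 to 9.97 in the pregnant group and from 9.77 to 9.95 in the non-pregnant group. Among them MUC1 was called higher and KRT8 lower in pregnant sows, although the other probe set of MUC1 had the opposite sign. At an unadjusted limma p under 0.05 there were 6 of the 10, with KRT18, KRT19 and FOXA2 also lower and CDH1 also higher. Of 9 endothelial markers 7 were called higher in pregnant sows, and the mean of the list was 7.14 to 7.68 against 6.46 to 6.98. For comparison with these marker counts, 4.58% of all genes were called higher and 7.48% lower, and 31.3% had an unadjusted limma p under 0.05. Of 8 stromal markers 4 were higher and 1 lower (list mean 9.75 to 10.4 against 9.49 to 10.1), and of 7 smooth muscle markers 1 was higher (7.91 to 8.59 against 7.71 to 8.23). None of 5 leukocyte markers was called by limma or had an unadjusted p under 0.05, with a list mean of 5.93 to 6.25 in pregnant sows and 5.68 to 8.15 in non-pregnant sows, where sow 7 was highest. Of 9 conceptus markers 1 was called, a probe set of CYP19A3 that was lower in pregnant sows, while only 1 of the 7 other probe sets of CYP19A3 had the same sign. The list mean ran from 5.23 to 7.07 in the pregnant group and from 5.16 to 5.77 in the non-pregnant group, and interferon gamma (IFNG), a product of the pig trophectoderm, stood at 12.65 in pregnant sow 10 and 8.21 in pregnant sow 6, against 3.61 to 4.41 elsewhere. The part of these cell types in the enzyme differences was not tested, and in bulk tissue fewer cells of a type and less RNA per cell cannot be told apart.

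Between pregnant and non-pregnant sows 9 of the 43 enzyme genes were called, against 12.1% of all genes (816 of 6765). FMO1, FMO5, CYP7A1, ALDH1A1 and CYP27A1 rose, 5 genes against a background of 4.58% of all genes, and CYP2C91, CYP51, ALDH9A1 and ALDH18A1 fell, 4 genes against 7.48%. The mean was higher in pregnant sows for 21 genes and lower for 22, and the median difference was -0.04, close to the -0.03 of all genes. The median size of a difference was 0.15 for the enzymes and 0.15 for all genes. At an unadjusted p under 0.05 there were 14 of 43 genes, where all genes gave 31.3%. The values of pregnant and non-pregnant sows did not overlap for 3 genes, FMO1, FMO5 and ALDH18A1, against 4.54% of all genes.

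**Figure D1:**
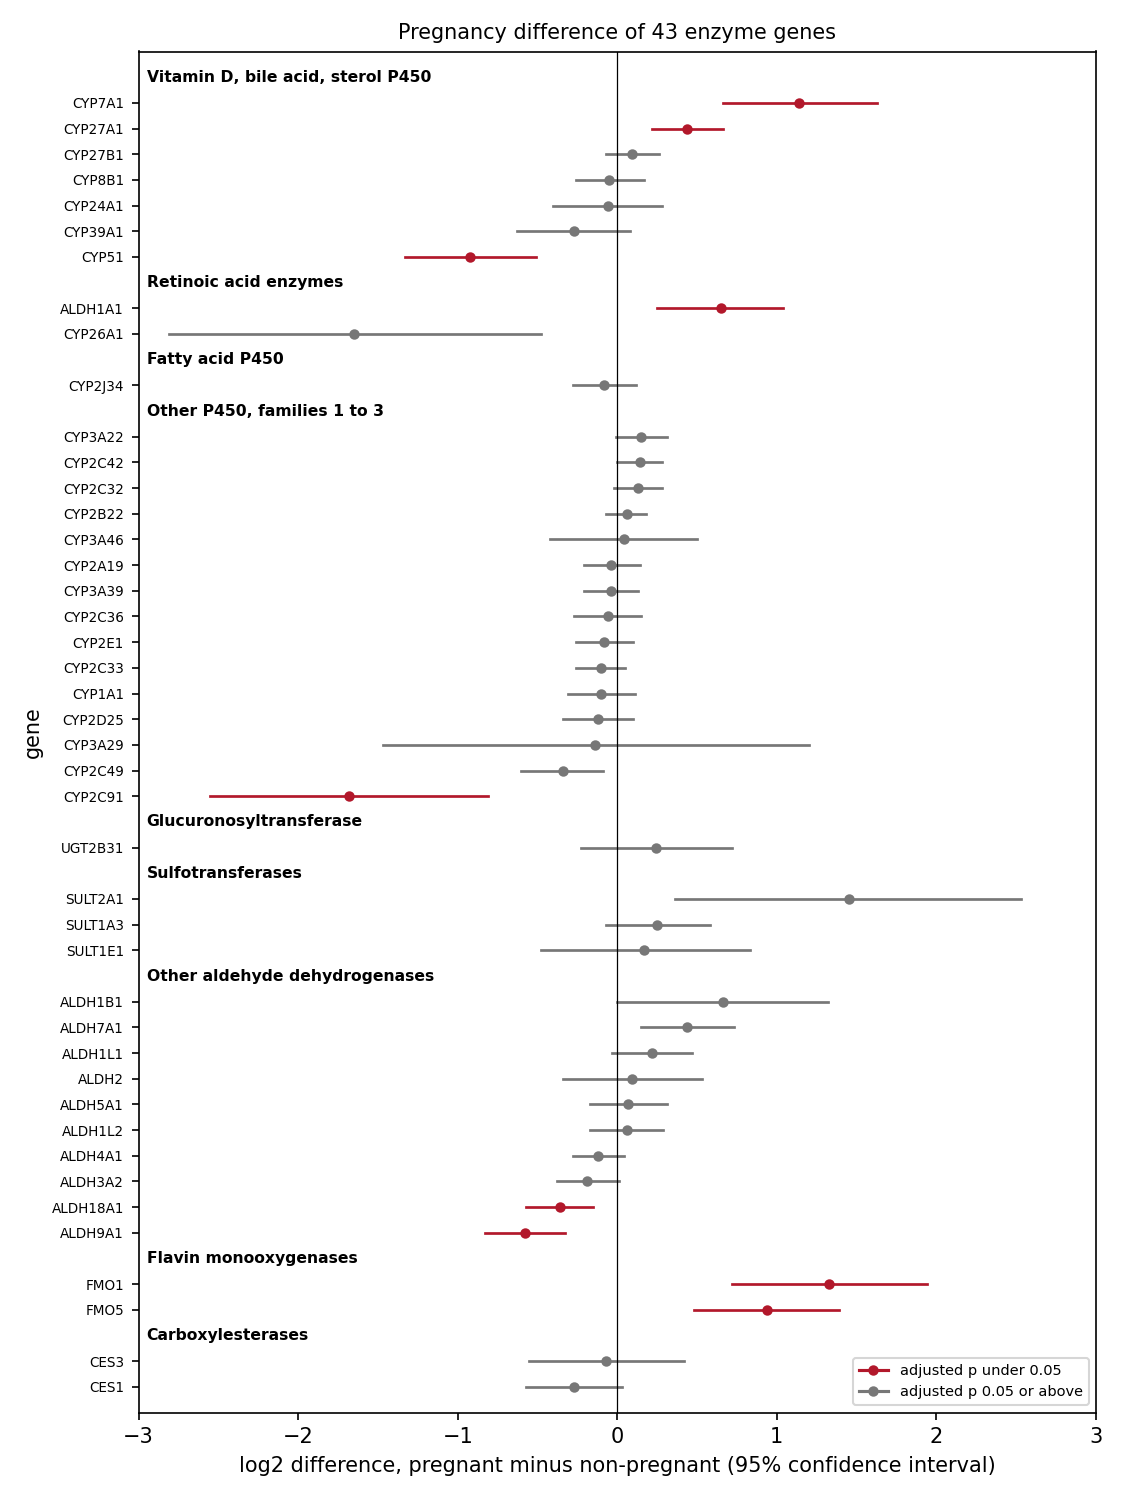
The log2 difference between pregnant and non-pregnant sows (x axis) with its 95% confidence interval is shown for each of the 43 genes (y axis), grouped by role. The 9 genes in red passed an adjusted p of 0.05, and the differences run from -1.68 for CYP2C91 to 1.45 for SULT2A1, which did not pass.

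Both flavin monooxygenases among the members rose, where the background is 4.58% of all genes. FMO1, which oxidises many nitrogen-containing and sulfur-containing compounds, ranged from 10.78 to 11.7 in pregnant sows, with a median of 11.46, and from 8.67 to 10.62 in non-pregnant sows, with a median of 10.23. The groups did not overlap, and the lowest pregnant value was above the highest non-pregnant one. The means were 11.34 ± 0.325 (SD, n = 6) and 10.01 ± 0.724, a difference of 1.33 ± 0.28 (SE) or 2.51-fold (limma adjusted p = 0.0164). The lowest non-pregnant value belonged to sow 9.

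FMO5, a member of the family that in humans also oxidises ketones to esters, ranged from 7.66 to 9.06 with a median of 7.87 in pregnant sows, and from 6.77 to 7.60 with a median of 7.18 in non-pregnant sows. The groups did not overlap, and the highest pregnant values, 9.06 and 8.59, came from sows 10 and 6, the same sows in which IFNG was high. The difference was 0.94 ± 0.21, or 1.92-fold (limma adjusted p = 0.0199). It was 0.88 without sow 6 (adjusted p = 0.0521) and 0.78 without sow 10 (adjusted p = 0.0287).

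Among the P450s of bile acid, sterol and vitamin D metabolism, 2 of 7 rose and 1 fell, against 4.58% and 7.48% of all genes. CYP7A1, the rate-limiting enzyme of the classic bile acid pathway in the liver, ranged from 5.49 to 6.86 (median 6.37) in pregnant and from 4.17 to 5.88 (median 5.23) in non-pregnant sows. The groups overlapped, since pregnant sow 8 lay below non-pregnant sows 1 and 11. The difference was 1.14 ± 0.22, or 2.2-fold (limma adjusted p = 0.0126). The level lay below the median of all values in every non-pregnant sow and in pregnant sows 6, 8 and 12 (6.02, 5.49 and 6.15).

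CYP27A1, a mitochondrial enzyme that hydroxylates the side chain of cholesterol, ranged from 8.16 to 8.79 (median 8.51) in pregnant and from 7.79 to 8.46 (median 8) in non-pregnant sows. Only pregnant sow 10 lay within the range of the non-pregnant sows. The difference was 0.44 ± 0.10, or 1.35-fold (limma adjusted p = 0.0240). Its other 2 probe sets gave 0.47 (adjusted p = 0.0757) and 0.12 (adjusted p = 0.419), and the mean of all its probe sets gave 0.34 (adjusted p = 0.0505). Omitting pregnant sow 2, 4 or 6, and likewise non-pregnant sow 3, ended the call (largest adjusted p 0.0605).

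CYP51, the lanosterol demethylase of cholesterol synthesis, moved the other way. It ranged from 8.11 to 9.57 (median 8.53) in pregnant and from 8.99 to 9.94 (median 9.63) in non-pregnant sows. The overlap came from pregnant sows 2 and 12 at the top of their group and from non-pregnant sow 7 at the bottom of its own. Pregnant sow 12 (9.57) also lay just above non-pregnant sow 1 (9.54). CYP51 fell by 0.92 ± 0.19, or 1.89-fold (limma adjusted p = 0.0148).

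The other 4 genes of this role were not called. CYP39A1, which hydroxylates an oxysterol on the way to bile acids, differed by -0.27 (adjusted p = 0.360) and CYP8B1, which shapes the mix of bile acids, by -0.05 (adjusted p = 0.838). CYP27B1, which makes active vitamin D, differed by 0.09 (adjusted p = 0.516), with a 95% confidence interval of -0.07 to 0.26. CYP24A1, which inactivates vitamin D, differed by -0.06 (adjusted p = 0.875; interval -0.40 to 0.28). CYP39A1 was called in the fit without pregnant sow 8 (-0.43, adjusted p = 0.0336).

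The retinoic acid pair was made up of ALDH1A1, which oxidises retinal to retinoic acid, and CYP26A1, which breaks retinoic acid down. ALDH1A1 ranged from 10.22 to 11.27 (median 10.94) in pregnant and from 9.21 to 10.95 (median 10.25) in non-pregnant sows, and the ranges overlapped widely. With breed in the model ALDH1A1 rose by 0.65 ± 0.18, or 1.56-fold (limma adjusted p = 0.0478), and its other probe set by 0.62 (adjusted p = 0.0373). ALDH1A1 kept its call when non-pregnant sow 3, non-pregnant sow 5 or pregnant sow 12 was left out, and lost it when any other sow was left out (adjusted p up to 0.0927). Without the breed term the adjusted p was 0.200.

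CYP26A1 ranged from 5.05 to 8.95 (median 7.71) in pregnant and from 7.65 to 9.78 (median 9.29) in non-pregnant sows. Pregnant sow 6 was far below all others at 5.05, while pregnant sows 2, 4 and 12 lay within the non-pregnant range. The difference was -1.65 ± 0.54, or 3.13-fold, and was not called (limma adjusted p = 0.0819, interval -2.81 to -0.48). It was -1.23 without sow 6 (adjusted p = 0.143) and -1.90 without pregnant sow 12 (adjusted p = 0.0460), where it was called. It was also called without non-pregnant sow 7 and pregnant sow 12 together (-2.16, adjusted p = 0.0256), a setting chosen after seeing the data, and with arrays weighted by their quality (-1.92, adjusted p = 0.0319).

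Other genes of retinoid transport and signalling were read from a list of 16, of which 6 were measured. RDH11, a retinal reductase, was the only one called, against 12.1% of all genes. RDH11 fell from a range of 8.51 to 9.17 in non-pregnant sows to 7.98 to 8.65 in pregnant sows, by 0.68 ± 0.14 (limma adjusted p = 0.0152). The median difference of the 6 genes was -0.09.

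Of the 15 P450s of families 1 to 3 that act on drugs and oestrogens, only CYP2C91 was called, against 12.1% of all genes. Its difference was the largest of the 43 genes. CYP2C91, a porcine member of the CYP2C subfamily, ranged from 6.68 to 8.82 (median 7.47) in pregnant sows and from 7.70 to 9.92 (median 9.58) in non-pregnant sows. The overlap came from pregnant sow 12 at 8.82 and non-pregnant sow 7 at 7.70, both at the edge of their groups, and apart from these, 5 pregnant sows lay at 6.68 to 7.76 and 5 non-pregnant sows at 8.80 to 9.92. CYP2C91 fell by 1.68 ± 0.40, or 3.21-fold (limma adjusted p = 0.0259). The call ended when 1 sow was omitted in 7 of the 12 fits, for pregnant sows 2, 4, 6 and 10 and among the non-pregnant for sows 3, 5 and 9 (largest adjusted p 0.0655).

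CYP2C49, another gene of the subfamily, ranged from 5.30 to 5.61 (median 5.498) in pregnant and from 5.44 to 6.06 (median 5.90) in non-pregnant sows, a difference of -0.34 ± 0.12 that was not called (limma adjusted p = 0.0925) but passed once non-pregnant sow 7 was left out (-0.43, adjusted p = 0.0226) or arrays were weighted (-0.43, adjusted p = 0.0201). CYP2C42 differed by 0.14 (adjusted p = 0.208). A probe set annotated to 4 CYP2C genes at once (CYP2C49, CYP2C36, CYP2C34 and CYP2C32), and so not a member, fell by 1.19 (adjusted p = 0.0465), from 4.29 to 6.46 in non-pregnant sows to 3.68 to 4.82 in pregnant sows. Members of this subfamily have similar sequences, and which transcripts each probe set measures was not tested.

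In the gene order of the Sscrofa11.1 assembly CYP2C42, CYP2C49, CYP2C32 and CYP2C36 lie close together, with 1 to 5 protein-coding genes between any pair, and ALDH18A1 lies 2 to 8 genes away from them. CYP1A1, which hydroxylates oestrogens and foreign aromatic compounds, lay at the background of the arrays, from 3.87 to 4.09 in pregnant and from 3.66 to 4.32 in non-pregnant sows, with a difference of -0.10 (adjusted p = 0.592). The other 11 genes of families 1 to 3 differed by -0.14 to 0.15 (adjusted p 0.266 to 0.936). CYP2J34, of a subfamily that turns arachidonic acid into epoxides, was the only fatty acid P450 among the members and differed by -0.08 (adjusted p = 0.683). Probe sets annotated to 2 CYP4A or 2 CYP4F genes at once were also on the array but are not members. None of them was called for pregnancy, and the brightest, annotated to CYP4F55 and CYP4F2, differed by -0.32 (limma adjusted p = 0.351).

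Of the other 10 aldehyde dehydrogenases 2 fell, against 7.48% of all genes. ALDH9A1, which oxidises aldehydes formed from polyamines and on the way to carnitine, ranged from 8.54 to 9.21 (median 8.67) in pregnant and from 9.18 to 9.53 (median 9.34) in non-pregnant sows. Only pregnant sow 12 reached the non-pregnant range, in which it lay above sow 1. ALDH9A1 fell by 0.58 ± 0.11, or 1.5-fold (limma adjusted p = 0.0128).

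ALDH18A1, which starts the synthesis of proline and ornithine from glutamate, ranged from 7.42 to 8.01 (median 7.78) in pregnant and from 8.03 to 8.26 (median 8.15) in non-pregnant sows. The groups did not overlap, although pregnant sow 6 at 8.01 came next to non-pregnant sow 1 at 8.03. ALDH18A1 fell by 0.36 ± 0.10, or 1.28-fold (limma adjusted p = 0.0404). The call was lost in 8 of the 12 fits that left out a sow (adjusted p up to 0.0931), in turn pregnant sows 2, 4 and 10 and non-pregnant sows 3, 5, 7, 9 and 11.

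ALDH7A1, which breaks down lysine and detoxifies aldehydes, had a mean of 8.22 ± 0.288 in the pregnant and 7.78 ± 0.405 in the non-pregnant group, a difference of 0.44 ± 0.13 that was not called (limma adjusted p = 0.0641). It was called without pregnant sow 8, the lowest of its group at 7.66 (0.52, adjusted p = 0.0309), with cyclic loess normalization (adjusted p = 0.0436), with array weights (adjusted p = 0.0313) and when dim probe sets were left out (adjusted p = 0.0461). The other probe set of ALDH7A1 gave 0.29 (limma adjusted p = 0.312), and the mean of both gave 0.36 (limma adjusted p = 0.138). ALDH1B1, a mitochondrial enzyme that oxidises acetaldehyde and retinal, differed by 0.66 ± 0.31 (limma adjusted p = 0.218). Its highest values were those of the pregnant Yorkshire sows 2 (7.14) and 4 (6.36), and without sow 2 the difference was 0.38 (adjusted p = 0.357). ALDH2, the main mitochondrial acetaldehyde dehydrogenase, differed by 0.09 (adjusted p = 0.841; interval -0.34 to 0.53). The other 5 genes differed by -0.19 to 0.22 (adjusted p 0.253 to 0.790).

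**Figure D2:**
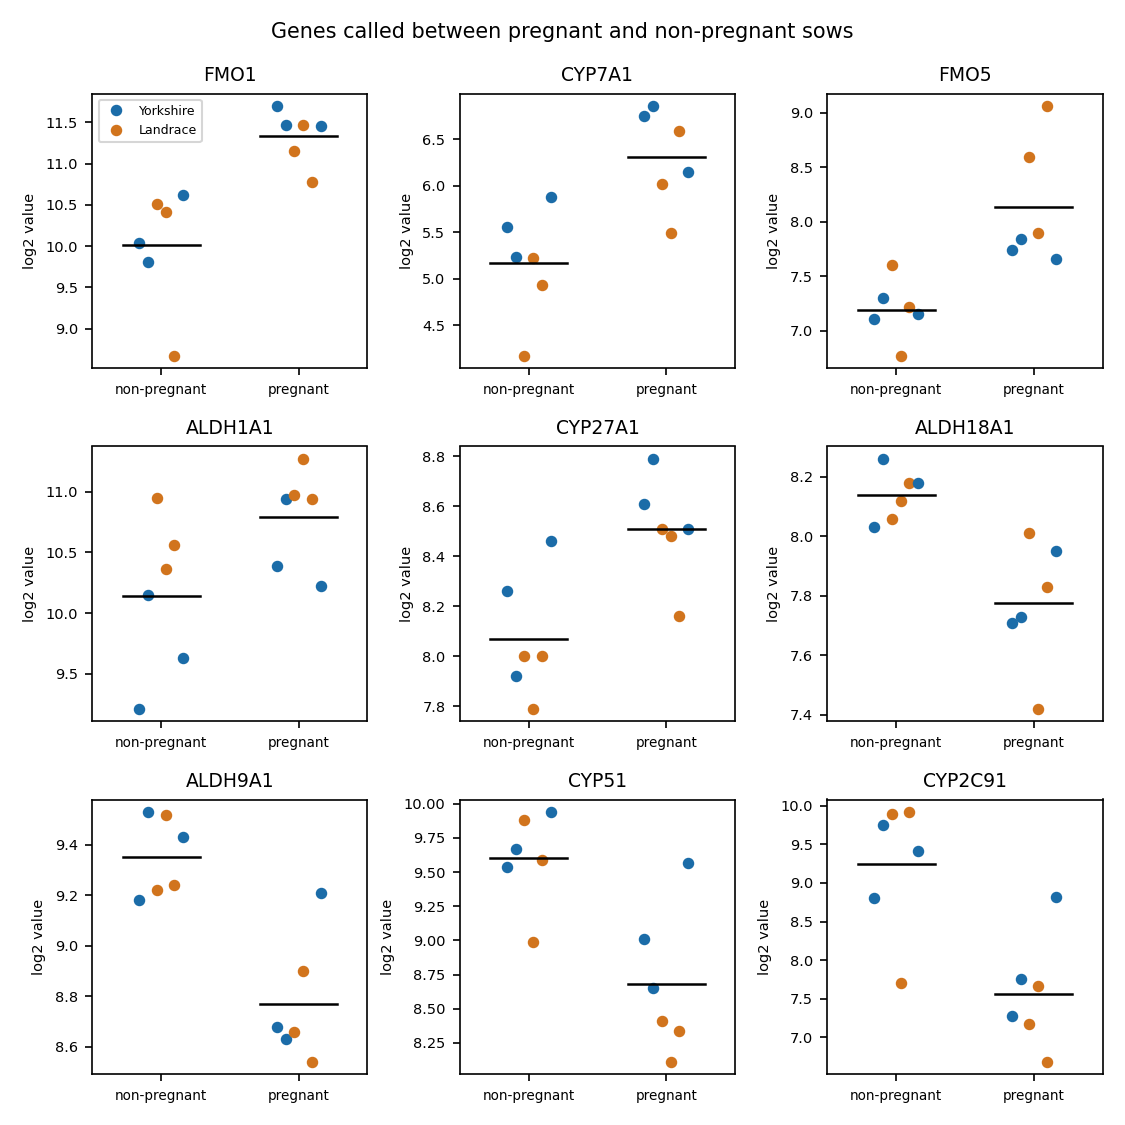
Log2 values (y axis) of the 9 called genes are shown for each sow, 6 non-pregnant at left and 6 pregnant at right, with blue points for Yorkshire, orange points for Landrace and a line at the group mean. FMO1, FMO5 and ALDH18A1 have no overlap between groups, while CYP2C91 overlaps through pregnant sow 12 at 8.82 and non-pregnant sow 7 at 7.70.

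None of the conjugating enzymes was called for pregnancy. SULT2A1, which sulfates dehydroepiandrosterone, bile acids and other hydroxysteroids, ranged from 9.17 to 11.51 (median 10.26) in pregnant and from 6.82 to 10.37 (median 9.44) in non-pregnant sows. The low values, 6.82 and 7.16, were those of the non-pregnant Yorkshire sows 3 and 1. The difference was 1.45 ± 0.50, or 2.72-fold, with an interval of 0.36 to 2.53 (limma adjusted p = 0.0981). It was called without pregnant sow 8 (1.87, adjusted p = 0.0131) and with array weights (1.58, adjusted p = 0.0390).

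SULT1E1, the oestrogen sulfotransferase, ranged from 4.08 to 5.84 (median 4.91) in pregnant and from 4.10 to 5.57 (median 4.54) in non-pregnant sows, and lay below the lower quartile on 6 arrays. The difference was 0.17 ± 0.30 (limma adjusted p = 0.798), with an interval of -0.48 to 0.83. SULT1A3, a phenol sulfotransferase that in humans acts on dopamine, differed by 0.25 ± 0.15 (adjusted p = 0.338). Its highest value, 10.65, was that of non-pregnant sow 7, and without that sow the difference was 0.40 and was called (adjusted p = 0.0229), as it was without sows 7 and 12 (0.44, adjusted p = 0.0127).

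UGT2B31, a glucuronosyltransferase, showed a pregnancy difference of 0.24 ± 0.22 (limma adjusted p = 0.576). The carboxylesterases CES1 and CES3, which split esters of drugs and lipids, differed by -0.27 (adjusted p = 0.269) and -0.07 (adjusted p = 0.906). Counted by role, none of these 6 conjugating and ester-splitting enzymes passed limma's adjusted test in either direction, against 12.1% of all genes, and 1, SULT2A1, had an unadjusted p under 0.05.

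Genes that serve these enzymes were read from 4 further lists, for which the background is 12.1% of all genes called. Of the P450 electron donors, 7 of 11 were measured, none was called by limma and 2 had an unadjusted p under 0.05. CYB5R1, a cytochrome b5 reductase, had the smallest p, with 8.99 to 10.87 in pregnant against 10.31 to 11.06 in non-pregnant sows and a difference of -0.91 ± 0.31 (limma adjusted p = 0.0928). Of a list of genes for cofactor supply and related steps of conjugation, 8 of 11 were measured and only BPNT1 was called.

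BPNT1, which clears the by-product of sulfation, ranged from 7.63 to 8.01 in pregnant and from 8.21 to 8.63 in non-pregnant sows, with no overlap, and fell by 0.58 ± 0.09 (limma adjusted p = 0.00587). Of the other conjugating and hydrolysing enzymes, 8 of 15 were measured. NQO1, a quinone reductase, was the only one called, against 12.1% of all genes. NQO1 rose by 0.82 ± 0.17 (limma adjusted p = 0.0161), from 6.25 to 7.06 in non-pregnant to 6.503 to 7.81 in pregnant sows. Of the nuclear and other receptors that control these enzymes, 10 of 17 were measured, none was called by limma and 1 had an unadjusted p under 0.05. The aryl hydrocarbon receptor AHR had that p, with a difference of 0.21 ± 0.07 (adjusted p = 0.0737). Of the 2 other probe sets of AHR only 1 had the same sign.

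Between breeds 3 of the 43 enzyme genes were called, against 5.26% of all genes (356 of 6765). CES1, UGT2B31 and ALDH1A1 were higher in Landrace (3 genes, where the background is 2.03%), and no gene was lower (background 3.24%) by limma's adjusted p. The dimmer probe set of ALDH3A2, which does not stand for the gene, was called lower in Landrace (-0.31, limma adjusted p = 0.0389). The probe set that stands for ALDH3A2 gave -0.20 (limma adjusted p = 0.256). At an unadjusted p under 0.05 there were 8 of 43 genes, 4 higher and 4 lower in Landrace, against 21.9% of all genes. The median difference, Landrace minus Yorkshire, was 0.00 for the enzymes and 0.00 for all genes, and its median size was 0.17 and 0.12. For none of the 43 genes did the breeds fail to overlap, against 2.88% of all genes.

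CES1 ranged from 6.95 to 7.71 (median 7.58) in Landrace and from 6.41 to 7.17 (median 6.68) in Yorkshire sows. The breeds overlapped through the Landrace sow 10 and the Yorkshire sows 3 and 4. The difference was 0.78 ± 0.14, or 1.71-fold (limma adjusted p = 0.00788), with 0.82 among non-pregnant sows and 0.73 among pregnant sows. CES1 was called in all 12 fits that left out a sow.

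UGT2B31 ranged from 7.46 to 8.01 (median 7.64) in Landrace and from 6.16 to 7.79 (median 6.45) in Yorkshire sows. Among the Yorkshire sows 5 lay below every Landrace sow, and pregnant sow 4 lay among the Landrace values at 7.79. The difference was 1.02 ± 0.22, or 2.03-fold (limma adjusted p = 0.0198). The other probe set of UGT2B31 gave a difference of the opposite sign, -0.40 (adjusted p = 0.419), and the mean of both gave 0.31 (adjusted p = 0.465), so that the breed difference belongs to 1 of 2 probe sets.

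ALDH1A1 ranged from 10.36 to 11.27 (median 10.95) in Landrace and from 9.21 to 10.94 (median 10.19) in Yorkshire sows. The difference was 0.75 ± 0.18, or 1.68-fold (limma adjusted p = 0.0330), and its other probe set gave 0.86 (adjusted p = 0.0105). This call also ended in 7 of the 12 fits, for pregnant sows 2, 8 and 12 and among the non-pregnant for sows 1, 5, 9 and 11 (largest adjusted p 0.0723).

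SULT2A1 had the largest breed difference, 1.5 ± 0.50, but was not called (limma adjusted p = 0.106), with a median of 10.19 in Landrace and 9.29 in Yorkshire sows. It was called without pregnant sow 8 (1.93, adjusted p = 0.0157) and with array weights (1.81, adjusted p = 0.0385). ALDH7A1 differed by -0.47 ± 0.13 (adjusted p = 0.0635) and CYP7A1 by -0.67 ± 0.22 (adjusted p = 0.109). The breed call of ALDH7A1 was gained when non-pregnant sow 1 was left out (-0.54, adjusted p = 0.0496). The other probe set of ALDH7A1 gave -0.43 (limma adjusted p = 0.147), and the mean of both gave -0.45 (limma adjusted p = 0.0893).

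The difference between the 3' and 5' control probe sets of GAPDH, a measure of RNA quality, was 1.07 ± 0.139 in Landrace and 1.49 ± 0.126 in Yorkshire sows, without overlap (exact permutation p = 0.00216, two-sided, n = 6). Of 8 stromal markers COL1A2 was called, lower in Landrace by -0.77 (limma adjusted p = 0.0266), 3 were lower at an unadjusted p under 0.05, and the list mean was 9.49 to 10.2 in Landrace and 9.78 to 10.4 in Yorkshire sows. No marker of the other 5 cell types was called for breed by limma, and 1, an epithelial marker, had an unadjusted p under 0.05. Of all genes 5.26% were called for breed and 21.9% had an unadjusted limma p under 0.05. The part of RNA quality and of cell types in the breed differences was not tested. Between pregnant and non-pregnant sows the same measure was 1.36 ± 0.204 and 1.2 ± 0.289 (exact permutation p = 0.273). Among the receptors, RXRB, a partner of many nuclear receptors, was lower in Landrace by -0.38 ± 0.09 (limma adjusted p = 0.0253).

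**Figure D3:**
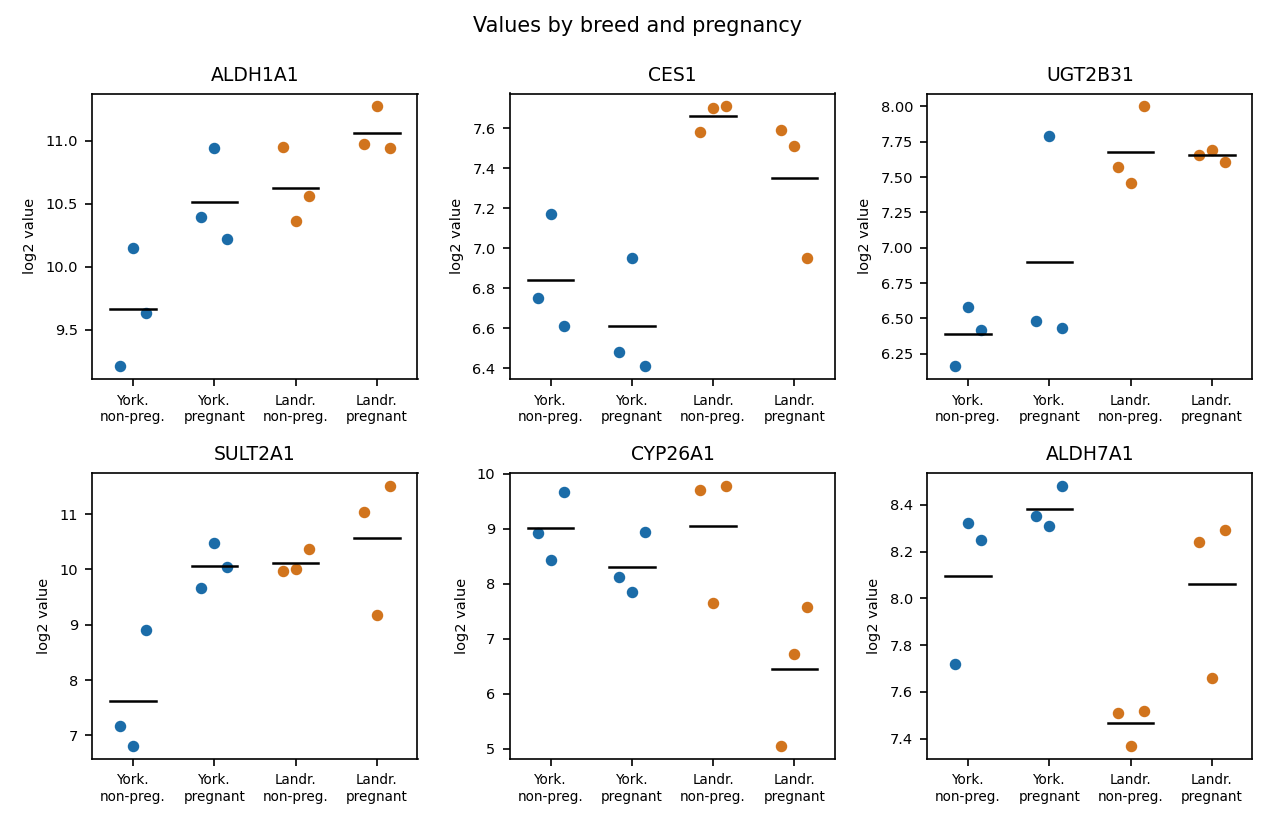
Log2 values (y axis) of 6 genes are shown for each sow in the 4 combinations of breed and pregnancy, with a line at the mean of 3 sows, blue for Yorkshire and orange for Landrace. SULT2A1 is lowest in the non-pregnant Yorkshire sows 1 and 3, and CYP26A1 reaches its lowest value, 5.05, in a pregnant Landrace sow.

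Whether the pregnancy difference depended on breed was tested as an interaction. By limma's adjusted p none of the 43 genes was called (0% of all genes), and at an unadjusted p under 0.05 there were 2, CYP2J34 and SULT2A1, against 4.97% of all genes. CYP2J34 differed by -0.27 in Yorkshire and 0.11 in Landrace (interaction 0.38 ± 0.16, limma adjusted p = 1). SULT2A1 differed by 2.43 in Yorkshire and 0.46 in Landrace (interaction -1.98 ± 0.85, limma adjusted p = 1). The third smallest p was that of FMO5, with 0.56 in Yorkshire and 1.32 in Landrace (interaction 0.76 ± 0.37, limma adjusted p = 1).

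Within Yorkshire sows none of the 43 genes was called by limma's adjusted p (0% of all genes) and within Landrace sows FMO5 alone was called (adjusted p = 0.0434; background 1.64%). At an unadjusted p under 0.05 there were 11 genes in Yorkshire, against 21.7% of all genes, and 12 in Landrace, against 20.7%. CYP26A1 differed by -0.70 in Yorkshire and -2.60 in Landrace sows (interaction -1.90 ± 0.96, limma adjusted p = 1). The 9 called genes had the same direction in both breeds, but they were chosen by their difference over both breeds in the same sows. Such a choice favours the same direction, so no conclusion is drawn from it. FMO1 differed by 1.39 in Yorkshire and 1.27 in Landrace, ALDH18A1 by -0.36 in each, and CYP51 by -0.64 and -1.20. Over all 43 genes the direction was the same in both breeds for 33 (76.7%), against 70.3% of all genes.

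**Figure D4:**
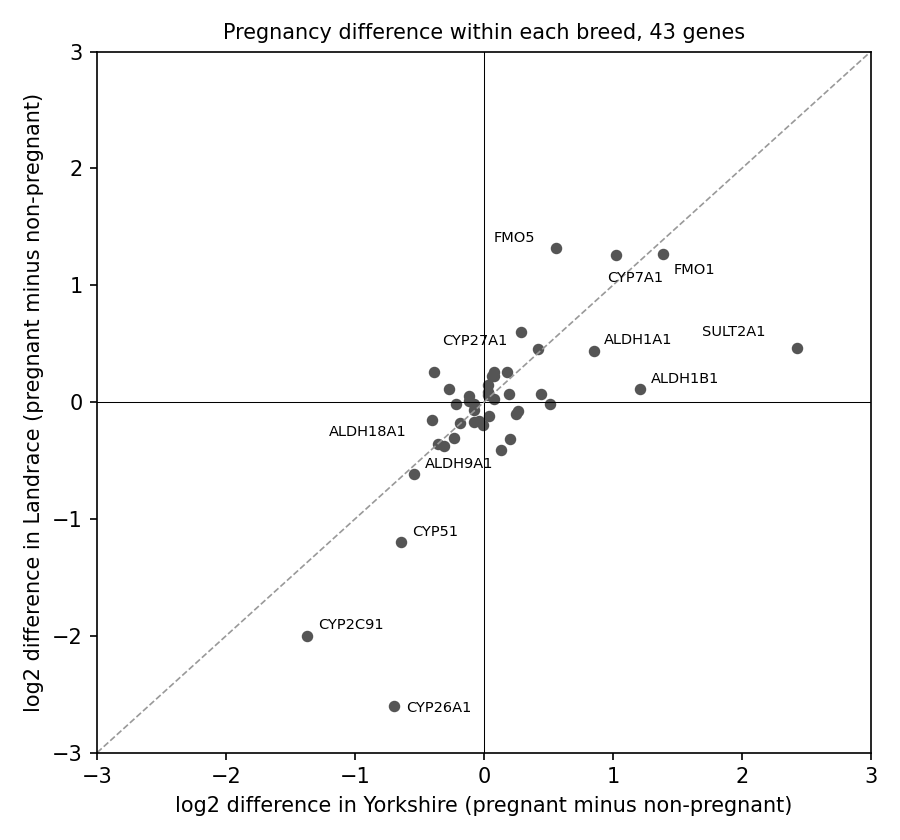
Each point is 1 of the 43 genes, with its log2 difference between pregnant and non-pregnant sows in Yorkshire (x axis) and in Landrace (y axis), and the dashed line marks equal differences. FMO1 and ALDH18A1 lie close to the line, SULT2A1 lies at 2.43 and 0.46, and CYP26A1 at -0.70 and -2.60.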

How the data were processed

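The deposited values were log2 expression values per probe set, 1 column for each of 12 sows, and the submitters' processing notes name RMA, affy and limma but no versions. RMA equalises intensity distributions between arrays, so that a difference is measured against the rest of the array. Of 24123 probe sets, 124 manufacturer controls were left out. Symbols came from the platform annotation (10069 probe sets with 1 symbol, 198 with several, 13732 with none), and 42 of the 43 members matched the RefSeq gene table of Sscrofa11.1 (not CYP3A39). The array's genome build is not given in the sources used here, and no coordinates or sequences are reported. All columns of sample values were used.

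The functions lmFit and eBayes of limma 3.58.1 (R 4.3.3, two-sided tests) were applied to the deposited log2 values of all 23999 probe sets over 12 arrays with pregnancy and breed as additive terms (9 residual degrees of freedom). Within-breed differences and the interaction came from a fit of 4 groups (8 residual degrees of freedom). The Benjamini-Hochberg adjustment covered all probe sets. Each sow is 1 replicate, and precision is limited by the number of arrays. The fit was tested on simulated data.

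Named with values were all called members, the 2 further members of each role with the smallest pregnancy p, the 3 with the smallest interaction p, members without overlap, and a fixed set of which 11 were measured. Members, lists and tests were chosen with earlier results of these data known. Alternatives were cyclic loess, centring on array medians, leaving out dim probe sets, a robust prior with an intensity trend, weighting of arrays, leaving out each sow, the mean of a gene's probe sets, and dropping the breed or pregnancy term. Leaving out non-pregnant sow 7 and pregnant sow 12 together was added after seeing the data.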

Additional observations from a re-analysis of the deposited data

Results flagged for a closer look

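Of 86 groups of 6 sows (43 genes in pregnant and in non-pregnant sows), 8 had 1 sow set apart from the rest, by a gap that, as a share of the group's range, exceeded Dixon's 95% critical value. Chance sets a sow apart in about 1 in 20 groups. Non-pregnant sow 7 accounted for 3 of the 8. In CYP3A29, of a P450 subfamily that acts on many drugs, sow 7 stood at 7.68 and the rest of its group at 3.62 to 4.35. In its neighbour CYP3A46 sow 7 stood at 4.84 and the others at 3.32 to 3.70, and in SULT1A3 at 10.65 and the others at 9.57 to 9.89. The macrophage marker CD163 stood at 11.11 in sow 7 and between 7.12 and 7.56 in the rest of its group. Its part in these values was not tested.

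In pregnant sows ALDH7A1 was 7.66 in sow 8 and 8.24 to 8.48 in the others, and CYP24A1 was 7.33 in sow 4 and 6.52 to 6.78 in the others. In non-pregnant sows CES3 was 10.68 in sow 3 and 9.56 to 9.93 in the others. Sow 9 was low in CYP27B1 (4.36, others 4.59 to 4.68), which lay near the background of the arrays, and in CYP3A22 (5.88, others 6.14 to 6.27). CYP3A22, CYP3A29 and CYP3A46 here, and CYP8B1 in the text above, are outside the rule for named genes and were chosen after their values were seen.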

How the results depend on the processing

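Over the named genes, 939 single-gene values under an alternative kept the direction and the side of the threshold, 47 lost the call, 18 gained it and 22 changed sign, all of differences not called in either setting. When a sow was left out, the pregnancy difference ranged from -0.02 to 0.22 for ALDH2, -0.20 to 0.09 for CES3, -0.19 to 0.01 for CYP24A1 and -0.03 to 0.34 for SULT1E1, and the breed difference from -0.10 to 0.03 for ALDH18A1, -0.02 to 0.45 for ALDH1B1, -0.16 to 0.13 for CES3, -0.07 to 0.02 for CYP27B1 and -0.03 to 0.12 for CYP2C49. Without sows 7 and 12 the pregnancy difference of CYP24A1 was 0.07 and that of SULT1E1 -0.07, and the breed difference was -0.13 for ALDH1B1, 0.09 for CES3, -0.04 for CYP24A1 and 0.12 for CYP2C91. The mean of its probe sets gave CYP2C42 a breed difference of 0.01. FMO1, CYP7A1, CYP51 and ALDH9A1 were called for pregnancy in all 12 fits that left out a sow. The count of genes higher in pregnant sows was 5, fell to 3 without the breed term, and ranged from 2 (without pregnant sow 6) to 6 when a sow was left out, with 3 when pregnant sow 2 or 4 was left out. The count of genes lower was 4 and ranged from 2 (with pregnant sow 2, 4 or 10, or else non-pregnant sow 3, 5 or 9, left out) to 5. The count lower in Landrace was 0, and 1 with the mean of a gene's probe sets or without non-pregnant sow 1, for a leave-one-out range of 0 to 1. The interaction gave 0 calls in every setting run. Leaving out non-pregnant sow 7 and pregnant sow 12 together gave 5 higher and 6 lower genes for pregnancy, and 2 higher and 0 lower for Landrace, where UGT2B31 lost its call (0.96, adjusted p = 0.0690) by limma. ALDH18A1 lost its call with cyclic loess (adjusted p = 0.0561), and ALDH1A1 with centring (adjusted p = 0.0532) or array weights (adjusted p = 0.0571). CYP27A1 lost its call without the breed term (adjusted p = 0.0634). The causes were not tested. No paired analysis was made, because the labels number the sows singly and do not say whether any were matched or related. Signal over background limits the genes near the lower quartile.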
